A study of Apostichopus japonicus with 9 samples.

Results

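Severe hypoxia (DO2 group) was compared with mild hypoxia (DO4 group) through the miRNAs of the respiratory tree, the branched organ in which the sea cucumber Apostichopus japonicus exchanges gas with sea water. Animals of the DO2 group were kept for 3 days at a dissolved oxygen (DO) of 2 mg/L and animals of the DO4 group for 3 days at 4 mg/L, both in sea water bubbled with nitrogen, while a DO8 group stayed at 8 mg/L. Each group had 3 small RNA libraries, and each library held pooled RNA from the respiratory trees of 3 animals, so the spread given here is between pools and not between animals. An entry, that is a miRNA name with its mature sequence, was included when its value was above 0 in all 3 libraries of DO2 or in all 3 of DO4, which held for 85 of the 475 entries. Of these, 80 were known miRNAs and 5 were predicted from the reads. All 6 libraries listed 62 of them, while 9 were complete in DO2 only and 14 in DO4 only.

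miRNAs are RNAs of about the length of the sequences given next that guide a silencing complex to messenger RNAs. Pairing is led by the seed, bases 2 to 8 from the 5′ end, so entries with 1 seed are expected to share targets. A miRNA gene makes a hairpin whose arms each give a product (5p and 3p), and trimming of the ends gives shorter or shifted forms, which small RNA sequencing counts separately. In animals, miR-1 and miR-133 are known from muscle, miR-124, miR-9, miR-7, miR-137 and miR-153 from the nervous system, miR-200 from epithelia and miR-375 from secretory cells. No miRNA that marks the respiratory tree itself was used, so the tissue was not checked in this way. In pooled tissue, fewer cells of a type and less RNA per cell cannot be told apart.

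Every change is given on 2 scales. The deposited value is the authors' normalised read value, formed with a factor per library, and the share is that value over the sum of all miRNA values of the same library. The sums were 2075912, 2029412 and 2118834 in DO2_1, DO2_2 and DO2_3, against 3984844, 3269840 and 3367389 in DO4_1, DO4_2 and DO4_3. DO2 was thus at 0.586 times DO4, with every DO2 library below every DO4 library (2-sided exact permutation p = 0.1, the smallest that 3 libraries against 3 allow). A change that is merely equal to this drop is -0.77 on the log2 scale of the deposited values and 0 on the share scale. The reads behind the values, worked out from their steps, were 335658, 628807 and 1740914 in the DO2 libraries and between 4795819 and 6024869 in the DO4 libraries. The smallest value listed was 12.4, 6.45 and 3.04 in DO2_1, DO2_2 and DO2_3, and 0.844 to 1.10 in DO4, so a miRNA near or below those levels could go unlisted at that depth and is only described as listed at 0. In the DO2 libraries these values stood for 2, 2 and 2.5 worked-out reads, so they are not a firm limit of detection.

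The following sequences carry the comparison. They are given 5′ to 3′ as deposited, with the seed in capitals, and their positions in the genome were not analysed here. The first set holds 5 of the 10 most abundant miRNAs, of which miR-10, miR-125, miR-71-5p and miR-200-3p were lower in DO2 on the deposited scale.

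Aja-miR-10: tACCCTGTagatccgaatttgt

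Aja-let-7-5p: tGAGGTAGtaggttatatagtt

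Aja-miR-125: tCCCTGAGaccctaacttgtga

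Aja-miR-71-5p: tGAAAGACatgggtagtgaga

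Aja-miR-200-3p: tAATACTGtctggtgatgatg

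The second set shows shorter entries that lie inside the miRNAs of muscle, of epithelia and of the miR-125 family. Aja-miR-1, Aja-miR-133 and Aja-miR-200 lack 4, 3 and 3 bases at the 3′ end of the longer entry, and Aja-miR-125-5p lacks 3 bases at the 5′ end of Aja-miR-125, which moves its seed.

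Aja-miR-1: tGGAATGTaaagaagtat

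Aja-miR-1a-3p: tGGAATGTaaagaagtatgtgt

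Aja-miR-133: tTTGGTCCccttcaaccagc

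Aja-miR-133-3p: tTTGGTCCccttcaaccagccgt

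Aja-miR-200: tAATACTGtctggtgatg

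Aja-miR-125-5p: cTGAGACCctaacttgtga

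The third set comes from the seed of miR-92, which 11 entries share. Aja-miR-235a is Aja-miR-92d without its last base, and both were called higher in DO2, whereas the other 9 entries with that seed were not called. Aja-miR-235a was complete in DO2 only, where it is high, so its call is no support.

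Aja-miR-92a: tATTGCACttgtcccggcctat

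Aja-miR-92b-1: tATTGCACttgacccggcctgc

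Aja-miR-92d: tATTGCACttttcctggcct

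Aja-miR-235a: tATTGCACttttcctggcc

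The fourth set shows the miR-6236 and miR-6240 entries, which include the 4 largest changes on the deposited scale. The last 10 bases of miR-6236-3p are the first 10 of miR-6236-5p, the last 11 bases of miR-6236-5p are the first 11 of miR-6236, and the 3 entries join into a run of 44 nt. The 3 miR-6240 entries lie within 22 nt of each other.

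Aja-miR-6236-3p: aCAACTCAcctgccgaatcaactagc

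Aja-miR-6236-5p: aTCAACTAgccctgaaaatga

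Aja-miR-6236: cCTGAAAAtgaatggcgc

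Aja-miR-6240-3p: aATGTGATttctgcccagtgc

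Aja-miR-6240-5p: aTGTGATTtctgcccagtgct

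Aja-miR-6240: aTGTGATTtctgcccagtgc

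The last set holds other miRNAs that were higher in DO2 on both scales. Aja-miR-153-1-p5 carries the number of miR-153, but its seed differs from that of miR-153-3p.

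Aja-miR-2008: tCAGCCTCgctgtcaatacga

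Aja-miR-375-3p: tTTGTTCGttcggctcgcgtca

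Aja-miR-137: tTATTGCTtgagaatacacgta

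Aja-miR-153-3p: tTGCATAGtcacaaaagtgatt

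Aja-miR-153-1-p5: tCTCTCTCtctctgacag

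Aja-miR-2835-5p: cCCGGACCctggttcttc

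On the deposited scale, 22 members were called higher and 6 lower in DO2 (limma, Benjamini-Hochberg adjusted p under 0.05). Over the 90 entries fitted, 31.1% were called, 24.4% higher and 6.67% lower, and the median change of the members was 0.05 on the log2 scale. On the share scale, 36 were called higher and 1 lower, against 41.1%, 40.0% and 1.11% of the 90, and the median change was 0.81. Both scales called 22 members higher and 1 lower, and no member was called in opposite directions. The deposited scale alone called 5 members, all lower, and the share scale alone called 14 members, all higher. Neither scale called 43 members, and for 21 of the 85 the sign of the change differed between the scales. The members complete in 1 group only had to differ to some degree. Among the 62 listed in all 6 libraries, the deposited scale called 13 higher and 5 lower and the share scale 27 higher and 1 lower. The count of lower calls depended on DO2_3 and DO4_3: without DO2_3, 12 of the 90 entries were lower on the deposited scale and 6 as a share, and without DO4_3, 10 and 4.

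The split between higher and lower calls followed the scaling. When reads were scaled to all clean reads of a library, 13 members were called higher and 50 lower, with a median change of -1.47 on the log2 scale. The fit adds 1 to each value before the log, and values on this scale are smaller. Changes of scarce members are therefore understated more here than on the deposited scale. The miRNA reads worked out from the values were 3.45%, 6.34% and 15.8% of the clean reads in DO2_1, DO2_2 and DO2_3, against 52.4%, 47.7% and 47.7% in DO4_1, DO4_2 and DO4_3. These percentages rest on the worked-out reads and lie below those that the paper lists for every library. They serve to compare libraries, not as absolute levels. The paper also lists unannotated reads at a larger part of the clean reads in every DO2 library than in every DO4 library. The groups thus differed in how much of a library the miRNAs took up, and the part of this in the changes of single miRNAs was not tested. With median-ratio factors 20 were called higher and 7 lower, with a median change of -0.09. The same 13 members were higher on the deposited values, the share, the median-ratio factors and the clean reads, and miR-125 was the 1 member lower on all 4. The 13 were the 3 miR-6236 and the 3 miR-6240 entries, miR-4171-5p, miR-1973-5p, miR-2835-5p, miR-235a, miR-153-1-p5 and the predicted entries 1 and 2, which are numbered here as in the files. Of the 13, 4 were listed in all 6 libraries (miR-6236-3p, miR-6236-5p, miR-6240 and miR-6240-5p) and 9 were complete in DO2 only, so these 9 entered through the group where they are high and their calls are no support. The groups did not overlap for 33 members on the deposited scale, 23 of them higher in DO2, and for 40 on the share scale, 37 of them higher in DO2, against 36.7% and 44.4% of the 90 entries fitted.

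**Figure D1:**
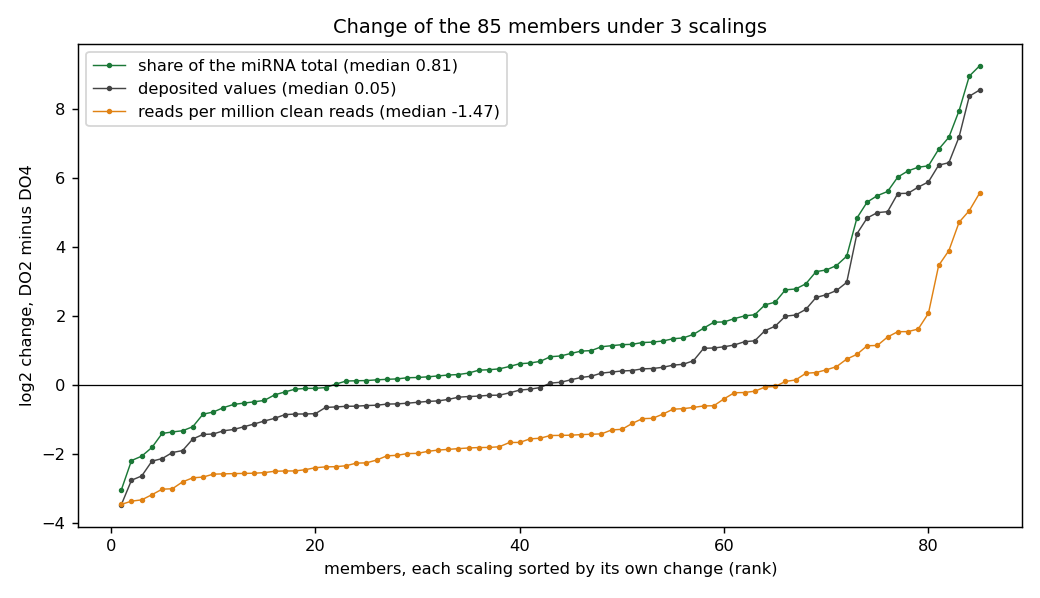
Change of the 85 members on 3 scalings (y axis: log2 change, DO2 minus DO4; x axis: rank of the member within its scaling). Each point is a member; the median lies at 0.81 for the share, 0.05 for the deposited values and -1.47 for reads scaled to clean reads, and the upper end stays above 0 on all 3.

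Of the 10 most abundant members, 4 were called lower in DO2 on the deposited scale (miR-10, miR-125, miR-71-5p and miR-200-3p), and 1 of these, miR-125, also as a share. The paper's real-time PCR, scaled to an rRNA, went the other way for these 4 and found them higher in DO2 than in DO4. It found every miRNA it covered higher in DO2, whichever way the sequencing went. The paper counts miR-2008, miR-153-3p, miR-153-1-p5, miR-184, the short miR-1 and predicted entries 1, 2 and 3 as following its sequencing trend. It counts miR-200-3p among these as well. The paper calls miR-10 Aja-miR-10-5p and miR-125 Aja-miR-125-5p, a name that stands here for a shorter entry. Why the 2 measures differ was not tested. miR-10, which is encoded in the Hox cluster, had values of 871306, 1021144 and 834008 in DO2 against 2038474, 1632316 and 1698579 in DO4. It was lower in all 3 DO2 libraries, with a log2 change of -0.98 ± 0.23 (SE, adjusted p = 0.0087). As a share it made up 43.9 ± 5.72% of the miRNA total in DO2 and 50.5 ± 0.62% in DO4 (SD, n = 3 each), the groups overlapped and the change of -0.21 ± 0.18 was not called (adjusted p = 0.364).

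miR-125, known with let-7 from the timing of development, was the member called lower on both scales. Its values were 111280, 116240 and 169172 in DO2, against 389714, 273134 and 403007 in DO4. The deposited change was -1.43 ± 0.23 (SE, adjusted p = 0.000985). Its share was 5.36%, 5.73% and 7.98% in the DO2 libraries and 9.78%, 8.35% and 11.97% in the DO4 libraries. The groups did not overlap on either scale. The share change of -0.67 ± 0.22 (adjusted p = 0.0344) passed the threshold with all 9 libraries, but not without DO2_1 (adjusted p = 0.123), DO2_2 (0.105), DO4_1 (0.0724), DO4_3 (0.103), DO8_1 (0.0517) or DO8_2 (0.0564), nor without the filter (0.111) or with the DO2 and DO4 libraries alone (0.065).

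let-7-5p, another of the most abundant members, had shares of 14.2%, 9.81% and 12.2% in DO2 against 12.2%, 13.8% and 8.05% in DO4, and the groups overlapped. Its change was -0.66 ± 0.28 on the deposited scale (adjusted p = 0.106) and 0.11 ± 0.25 as a share (adjusted p = 0.766). let-7a, which differs from it by T18C (the base of let-7-5p, the position from the 5′ end, the base of let-7a), was listed at 0 in DO2_1, at 6.45 in DO2_2 and at 18.3 in DO2_3, and at 44.0, 35.4 and 26.9 in DO4. It was called lower on the deposited scale (-2.77 ± 0.94, adjusted p = 0.0491). The 0 in DO2_1 says only that it was not listed there, where the smallest value listed was 12.4. That call was lost when any 1 library other than DO2_3 was left out (adjusted p between 0.0731 and 0.137). Of the 7 members of the Hox cluster and let-7 cluster families, the deposited scale called 3 lower and the share scale 1 lower and 1 higher. Among the 90 entries fitted, the deposited scale called 6.67% lower and the share scale 1.11% lower and 40.0% higher. Together these families made up 61.7%, 66.0% and 59.6% of the miRNA total in DO2, below the 73.2%, 72.2% and 70.6% in DO4 (exact permutation p = 0.1).

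miR-71-5p, of a family found in invertebrates and absent from vertebrates, had values of 43486, 63098 and 69684 in DO2 against 181244, 162651 and 96700 in DO4, a log2 change of -1.30 ± 0.28 (adjusted p = 0.00509). Its share was 2.83 ± 0.644% in DO2 and 4.13 ± 1.11% in DO4 (SD, n = 3 each), which overlapped (-0.53 ± 0.27, adjusted p = 0.159). miR-200-3p, a guardian of the epithelial state in vertebrates, had values of 34581, 33254 and 39352 in DO2, all below 55859, 122657 and 106580 in DO4. The deposited change was -1.34 ± 0.30 (adjusted p = 0.00635), and the share change of -0.57 ± 0.37 was not called (adjusted p = 0.256), with DO4_1 at 1.40% lying below all DO2 libraries (1.64% to 1.86%). miR-2013-3p, of an echinoderm family, was lower on the deposited scale (600, 681 and 538 in DO2 against 1404, 1730 and 1147 in DO4; -1.22 ± 0.25, adjusted p = 0.00422). As a share it was lower in all 3 DO2 libraries as well, but not called (-0.46 ± 0.28, adjusted p = 0.236).

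**Figure D2:**
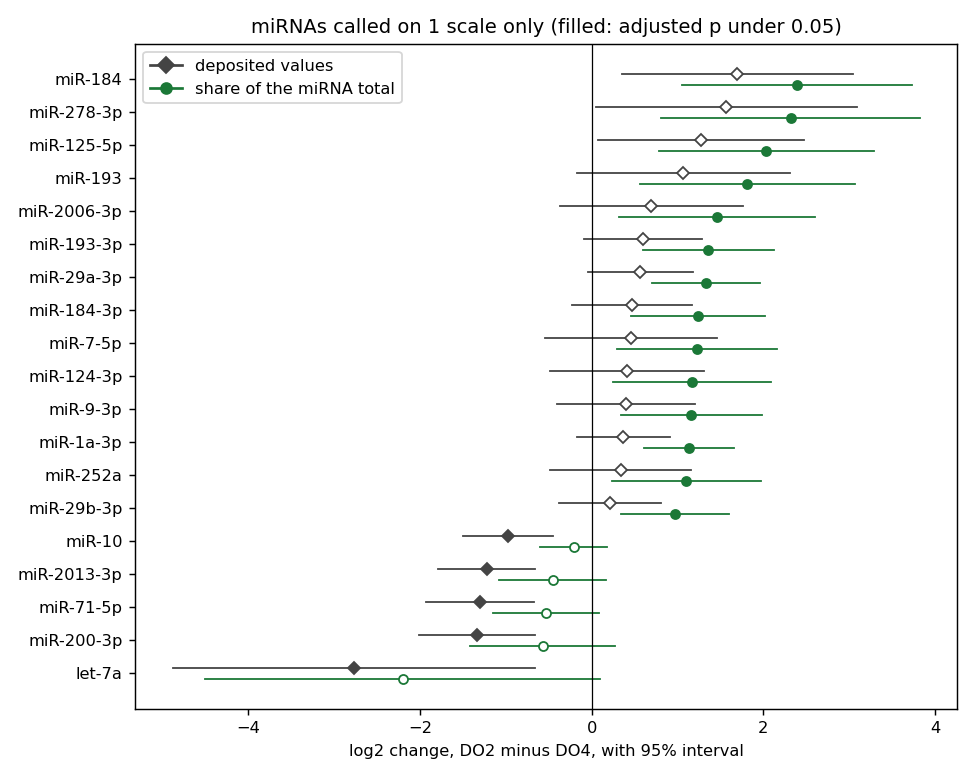
The 19 members called on 1 scale only (x axis: log2 change, DO2 minus DO4; bars: 95% interval; filled symbols: adjusted p under 0.05). The 14 upper members were called higher as a share and the 5 lower ones were called lower on the deposited values.

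Of the 5 muscle members, 2 were called higher in DO2 on the deposited scale and 3 as a share, namely miR-1a-3p and the short entries miR-1 and miR-133. The matching shares of the 90 entries fitted were 24.4% and 40.0%. miR-1a-3p, the full-length miR-1 and among the 10 most abundant members, had values of 122402, 72310 and 110416 in DO2 against 88375, 66733 and 77038 in DO4. These overlapped, with a deposited change of 0.37 ± 0.24 (adjusted p = 0.252). Its share was 5.90%, 3.56% and 5.21% in DO2 and 2.22%, 2.04% and 2.29% in DO4, without overlap, a change of 1.13 ± 0.23 (adjusted p = 0.0039). miR-133-3p, the full-length form of the other muscle miRNA, was not called (0.12 ± 0.34 as a share, adjusted p = 0.794). miR-133a-5p was listed at 0 in DO2_1 and DO2_2 and at 144.8 in DO2_3, against 51.6, 53.9 and 70.3 in DO4, and was not called either (-3.49 ± 1.61 deposited, adjusted p = 0.126, and -3.06 ± 1.73 as a share, adjusted p = 0.199). The summed muscle share was 6.22%, 3.82% and 5.43% in DO2 against 2.41%, 2.24% and 2.63% in DO4, and no overlap was seen (exact permutation p = 0.1). Whether the pools held different amounts of muscle was not tested.

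Of the 8 members of the nervous system list, 3 were called higher on both scales and 6 as a share, and none lower. The deposited scale called 24.4% of the 90 entries fitted higher and 6.67% lower, and the share scale 40.0% and 1.11%. The 3 members higher on both scales were miR-137, miR-153-3p and miR-153-1-p5. The last has a seed unlike that of miR-153-3p. It was listed at 0 in all of DO4 and entered through DO2 only, so its call is no support. miR-9-5p (-0.60 ± 0.44 deposited, adjusted p = 0.292, and 0.17 ± 0.47 as a share, adjusted p = 0.794) and miR-124 (0.07 ± 0.34, adjusted p = 0.857, and 0.83 ± 0.34, adjusted p = 0.0824) were not called. miR-137 had values of 742, 1130 and 1733 in DO2 against 488, 393 and 686 in DO4. All DO2 libraries were higher, by 1.15 ± 0.37 on the deposited scale (adjusted p = 0.037) and by 1.92 ± 0.39 as a share (adjusted p = 0.00366). The deposited call of miR-137 was lost without DO2_2 (adjusted p = 0.0857), DO2_3 (0.083), DO4_1 (0.0911), DO4_2 (0.0826) or any 1 DO8 library (0.059 to 0.0618), while its share call was kept. miR-153-3p had values of 123.7, 110 and 299 in DO2 against 41.0, 31.4 and 44.3 in DO4, and was higher by 2.02 ± 0.49 (adjusted p = 0.00907) and by 2.78 ± 0.48 as a share (adjusted p = 0.00138). miR-124-3p, miR-7-5p and miR-9-3p were called as a share only, at 1.17 ± 0.41, 1.23 ± 0.41 and 1.16 ± 0.37 (adjusted p = 0.044, 0.0405 and 0.0306), and miR-7-5p overlapped between the groups. Their calls were lost in several fits that left out 1 library, with adjusted p up to 0.146 for miR-124-3p (without DO4_1), 0.116 for miR-7-5p (without DO2_2) and 0.0968 for miR-9-3p (without DO4_1). The summed share of the list was 0.105%, 0.155% and 0.178% in DO2 against 0.0486%, 0.0615% and 0.0725% in DO4.

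miR-375-3p, which in vertebrates marks pancreatic islets and other secretory cells, had values of 29077, 27935 and 38233 in DO2 against 9374, 17328 and 21207 in DO4. Its share of 1.53 ± 0.24% in DO2 was above 0.465 ± 0.205% in DO4 (SD, n = 3 each), without overlap on either scale, a change of 1.82 ± 0.39 (adjusted p = 0.00445). The deposited change of 1.06 ± 0.34 (adjusted p = 0.0401) did not pass without DO2_1 (0.0768), DO2_2 (0.0857), DO2_3 (0.111), DO4_1 (0.129), DO4_2 (0.0511), DO8_1 (0.0523) or DO8_3 (0.0571), whereas the share call was kept in each of those fits.

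The echinoderm families were mixed. miR-2008, whose family was described in sea urchins and which has been linked to skin ulceration in this species, had values of 3463, 2905 and 2770 in DO2 against 419, 884 and 1195 in DO4. Every DO2 library lay above every DO4 library, by 1.99 ± 0.36 on the log2 scale (adjusted p = 0.00194) and by 2.75 ± 0.42 as a share (adjusted p = 0.000706). The other arm, miR-2008-5p, had values of 55.7, 83.9 and 124.1 in DO2 and 100.5, 111 and 303 in DO4, which overlapped (-0.84 ± 0.53, adjusted p = 0.243). miR-2002-3p had values of 2400, 1924 and 481 in DO2 against 61.5, 649 and 113 in DO4. Its deposited values overlapped and its shares did not, and it was called on both (2.97 ± 0.85, adjusted p = 0.0223, and 3.73 ± 0.90, adjusted p = 0.00911). The deposited call was lost without DO2_1 (0.0785), DO2_2 (0.106), DO4_1 (0.0911) or DO4_3 (0.0663) and the share call without DO2_2 (0.0565). miR-2002a-3p, which is 1 base longer, did not go with it (0, 58.1 and 39.6 in DO2 against 17.2, 77.0 and 32.9 in DO4). It was not called (-1.44 ± 1.35 deposited, adjusted p = 0.406, and -0.86 ± 1.48 as a share, adjusted p = 0.691). miR-2004-3p, miR-2005-5p, miR-2007-5p, miR-2010-3p, miR-2011-3p and miR-2012 were not called on either scale, with share changes between 0.14 and 0.68. Nor was miR-2006-5p (0.05 ± 0.35 deposited, adjusted p = 0.896, and 0.81 ± 0.34 as a share, adjusted p = 0.0914), the other arm of miR-2006-3p. miR-2006-3p was called as a share only (1.46 ± 0.51, adjusted p = 0.044) although its groups overlapped, and lost its call in 7 of the 9 fits that left out a library (adjusted p up to 0.166). Of the 13 members of these families, 2 were higher and 1 was lower on the deposited scale, and 3 were higher as a share. For the 90 entries fitted, these calls came to 24.4%, 6.67% and 40.0%.

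Members of further families were called higher as a share only. miR-184-3p, an epithelial miRNA of flies and vertebrates and among the 10 most abundant members, had shares of 4.29%, 3.13% and 3.00% in DO2 against 0.871%, 2.50% and 1.42% in DO4, a change of 1.24 ± 0.35 (adjusted p = 0.0185). It was not called without DO2_1 (0.0674) or DO2_2 (0.0565). Its scarce variant miR-184, which differs by G20T (the base of miR-184-3p first), stood at 0.0312%, 0.0305% and 0.0430% of it in DO2 against 0.0114%, 0.0167% and 0.0119% in DO4, without overlap. miR-184 itself was higher as a share by 2.40 ± 0.595 (adjusted p = 0.00998), but not without the filter (0.0949). Its deposited change of 1.70 ± 0.60 was not called (adjusted p = 0.0566). Its values rest on few worked-out reads, as few as 4.5 in a DO2 library and 6 in a DO4 library. miR-29a-3p and miR-29b-3p, which target collagen messages in vertebrates, were higher as a share by 1.33 ± 0.28 (adjusted p = 0.00401) and 0.98 ± 0.28 (adjusted p = 0.0199). The call of miR-29b-3p was lost without DO2_1 (0.054) or DO2_2 (0.0565). miR-193-3p and its variant miR-193 were higher by 1.36 ± 0.34 (adjusted p = 0.0101) and 1.82 ± 0.56 (adjusted p = 0.0275), the variant not without DO2_1 (0.0714) or DO4_1 (0.0968). miR-278-3p, of an invertebrate family, was higher by 2.32 ± 0.67 (adjusted p = 0.0204), but not without DO2_2 (0.0565), DO4_1 (0.0549) or DO4_3 (0.0723). miR-252a, also of an invertebrate family, was higher by 1.10 ± 0.38 (adjusted p = 0.044) with overlapping groups, and its call was lost in 7 of the 9 fits that left out a library (adjusted p up to 0.166).

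Families that respond to low oxygen in vertebrates had 11 entries in the files, of which 4 were members. Of the 4, 1 (miR-200-3p) was lower on the deposited scale and 0 were called as a share, against 31.1% and 41.1% of the 90 entries fitted. miR-210-3p, the miRNA most often tied to hypoxia there through the factor HIF, had values of 328, 1117 and 599 in DO2 and 1293, 2116 and 489 in DO4. The groups overlapped, and the changes were -0.87 ± 0.62 on the deposited scale (adjusted p = 0.285) and -0.10 ± 0.63 as a share (adjusted p = 0.912). miR-26a-5p was listed at 0 in DO2_1 and DO2_2 and at 35.3 in DO2_3, against 1.98, 1.36 and 54.1 in DO4. Of its 3 DO4 values, 2 lay below the smallest value listed in any DO2 library. miR-34, known from ciliated cells, and miR-96-5p, of sensory cells, were not called (share changes of 0.63 ± 0.65 and -1.37 ± 1.52, adjusted p = 0.479 and 0.5). The vertebrate liver miRNA miR-122-5p was listed at 0 to 34.02 in DO2 and at 1.32 to 181.1 in DO4 and was not called on either scale.

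**Figure D3:**
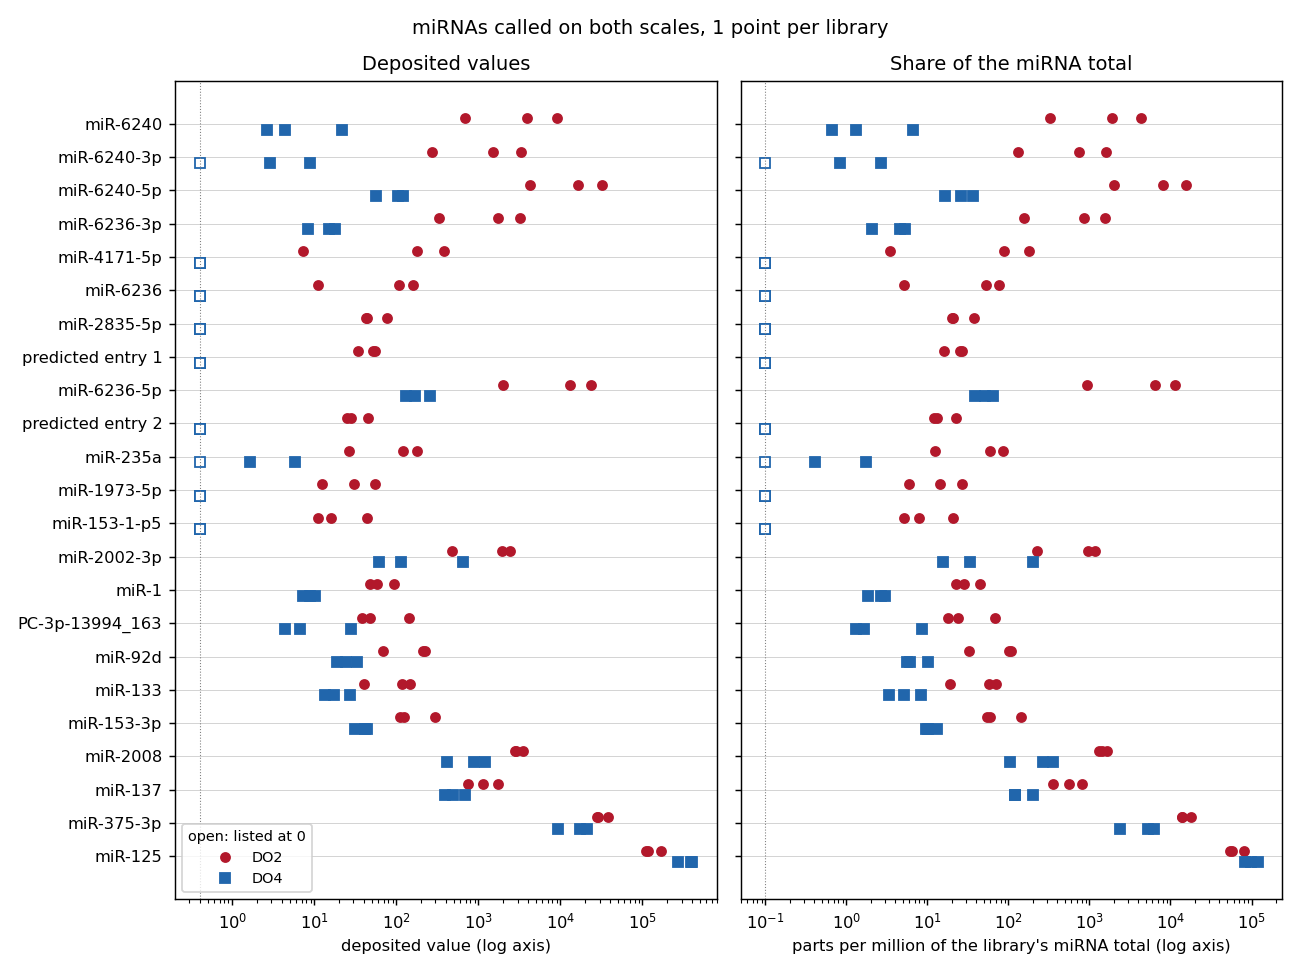
Values of the 23 members called on both scales, with 1 point per library and the DO2 group above the DO4 group in each row (left: deposited value; right: share of the library's miRNA total in ppm; both axes logarithmic; open symbols are listed at 0). In the top 4 rows, of miR-6240 and miR-6236 entries, the 3 DO2 points are spread over more than those of DO4 yet lie to their right, and miR-125 at the bottom is the row with DO2 below DO4.

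The 4 largest changes on the deposited scale were in entries of families that have been described as fragments of ribosomal RNA in other species. miR-6240-5p had values of 32324, 16268 and 4314 in DO2 against 104, 119 and 56.0 in DO4. It made up 1.56%, 0.802% and 0.204% of the miRNA total in DO2 and at most 0.00365% in DO4. Its log2 change was 7.20 ± 0.68 (adjusted p = 3.49e-05). miR-6236-5p made up 1.13%, 0.637% and 0.0931% in DO2 against 0.00650%, 0.00515% and 0.00389% in DO4, a change on the deposited scale of 5.55 ± 0.81 (adjusted p = 0.000525). miR-6240 had values of 9033, 3874 and 684 in DO2 against 2.65, 21.8 and 4.43 in DO4 (8.55 ± 0.99, adjusted p = 0.000135). miR-6236-3p and miR-6240-3p changed by 6.45 ± 1.01 and 8.38 ± 1.07. In all 6 entries DO2_1 was highest and DO2_3 lowest of the DO2 libraries, and every DO2 library lay above every DO4 library. The 6 entries together made up 3.44%, 1.79% and 0.358% of the miRNA total in DO2, against 0.00938%, 0.0102% and 0.0063% in DO4. In the DO8 group miR-6240-5p was listed at 59.5, 47.2 and 111.

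miR-4171-5p, which also resembles a fragment of another RNA, was listed at 377, 180.7 and 7.30 in DO2 and at 0 in all DO4 libraries, and miR-1973-5p, whose family has been described as a fragment of mitochondrial ribosomal RNA, at 12.4, 54.9 and 30.4 in DO2 and at 0 in DO4. Of the 11 members that resemble fragments of other RNAs, 8 were higher on both scales and 0 lower. Of the 90 entries fitted, 24.4% were higher on the deposited scale and 40.0% as a share. Among the 8, miR-1973-5p, miR-4171-5p, miR-6236 and miR-6240-3p were complete in DO2 only and had to differ to some degree. miR-1260, miR-2478a-5p and miR-2478b-3p, which resemble tRNA pieces, were not called, and miR-2478b-3p was lower in all 3 DO2 libraries (37.1, 48.4 and 4.26 against 52.6, 260 and 60.1 in DO4; -2.14 ± 0.90, adjusted p = 0.106). The share of the miR-6236 and miR-6240 entries was highest in DO2_1, the library with the fewest reads, and lowest in DO2_3, the DO2 library with the most. The paper also lists rRNA at a larger part of the clean reads in every DO2 library than in every DO4 library. Within DO2 that part was highest in DO2_2 and lowest in DO2_3. Its bearing on the miR-6236 and miR-6240 entries was not tested. What part these entries have in the other changes was not tested. With the fragment-like entries left out of the total and not fitted, the share scale called 28 members higher and 1 lower. The calls lost were those of the 8 entries left out. As the fragment-like entries made up at most 3.46% of a total, leaving them out could hardly move the other shares, and nothing is read from it.

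Members listed at 0 in all of DO4 numbered 7, and none was at 0 in all of DO2. Besides miR-4171-5p, miR-1973-5p and miR-6236 these were miR-2835-5p (43.3, 77.5 and 42.6 in DO2), miR-153-1-p5 (43.3, 16.1 and 10.9), predicted entry 1 (55.7, 51.6 and 34.1) and predicted entry 2 (24.7, 45.2 and 28.0). No fold is given for them, since their fitted change depends on the 1 added to each value. All 7 were called higher on both scales, as they had to differ to some degree by the way they were chosen. When every value under 12.4 was set to 12.4, the deposited calls of miR-153-1-p5 (adjusted p = 0.24), miR-1973-5p (0.12), miR-4171-5p (0.107) and miR-6236 (0.107) were lost. In DO8, miR-153-1-p5 was listed at 3.59, 5.003 and 2.32 and the other 6 at 0. In the opposite direction, 14 members were complete in DO4 and at 0 in at least 1 DO2 library, of which the deposited scale called let-7a lower and the share scale called none. For 5 of them every DO4 value lay under 12.4, the smallest value listed in DO2_1.

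The predicted members were 5. PC-3p-13994_163 had values of 142.2, 48.4 and 37.7 in DO2 against 6.61, 28.0 and 4.43 in DO4, without overlap. It was called on both scales (2.61 ± 0.81, adjusted p = 0.0334, and 3.33 ± 0.81, adjusted p = 0.00912), the deposited call not without DO2_1 (0.089), DO2_2 (0.0683), DO4_1 (0.114), DO4_3 (0.101) or DO8_1 (0.0523). Predicted entry 3 (0, 45.2 and 35.3 in DO2 against 3.97, 4.09 and 5.70 in DO4) and PC-3p-13527_171 were not called. Predicted entries as a whole made up 0.0265%, 0.0798% and 0.166% of the miRNA total in DO2 and 0.0126%, 0.00455% and 0.00302% in DO4.

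For the 4 short entries shown in the second set of sequences, the ratio to the longer entry that holds them was higher in every DO2 library than in every DO4 library (exact permutation p = 0.1 for each, the smallest possible). miR-1, which is miR-1a-3p without its last 4 bases, had values of 92.8, 58.1 and 47.5 in DO2 against 7.28, 8.86 and 10.1 in DO4, a change of 2.74 ± 0.57 (adjusted p = 0.0044). It stood at 0.0758%, 0.0803% and 0.0430% of miR-1a-3p in DO2 against 0.00823%, 0.0133% and 0.0131% in DO4, a difference of 2.50 in the log2 ratio. Such a ratio is formed within a library and does not depend on the scaling. miR-133 stood at 2.21%, 2.39% and 0.928% of miR-133-3p in DO2 against 0.181%, 0.429% and 0.154% in DO4, a difference of 2.89. Its own values were 145, 118 and 40.8 in DO2 against 13.6, 27.6 and 17.4 in DO4 (2.19 ± 0.60, adjusted p = 0.0183), a call lost without DO2_1 (0.0549), DO2_2 (0.0642) or DO4_1 (0.0759) on the deposited scale and kept on the share scale.

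miR-200 stood at 0.536%, 0.330% and 0.158% of miR-200-3p in DO2 against 0.0308%, 0.107% and 0.0368% in DO4, a difference of 2.61. miR-200 itself, at 185.5, 109.7 and 62.1 in DO2 against 17.2, 131.6 and 39.3 in DO4, overlapped between the groups and was called on neither scale (1.25 ± 0.73 deposited, adjusted p = 0.207, and 2.00 ± 0.77 as a share, adjusted p = 0.0677). miR-125-5p, which is trimmed at the other end, stood at 0.222%, 0.139% and 0.0460% of miR-125 in DO2 against 0.0119%, 0.0355% and 0.0118% in DO4, a difference of 2.72. miR-125-5p was thus higher as a share by 2.03 ± 0.56 (adjusted p = 0.0166) where miR-125 was lower, although its call was lost without DO2_1 (0.0512), DO2_2 (0.0565) or DO4_1 (0.0564). Of the 13 pairs of an entry inside a longer one, 9 were compared, and the 4 with an entry at 0 in a library (such as miR-235a in miR-92d and miR-6240 in miR-6240-3p) were not. The other 5 of the 9 overlapped between the groups. miR-6240 over miR-6240-5p, miR-71 (19 nt) over miR-71-5p and miR-124-3p over miR-124 had positive differences (1.61, 0.82 and 0.34), while miR-252a-5p over miR-252a and miR-92d-3p over miR-92-3p were close to 0 (-0.08 and -0.14).

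Of all 45 pairs compared (9 of these nested pairs, 5 pairs of opposite arms and 31 other pairs with the same seed), 15 did not overlap, all with the higher ratio in DO2. None passed a test: the smallest 2-sided exact permutation p was 0.1 and the smallest adjusted over the 45 pairs was 0.3. The pairs share entries, 7 of the 15 hold miR-92d, and 27 pairs did not overlap without DO2_3 (5 of them lower in DO2) and 28 without DO4_2 (3 of them lower in DO2). None of the 5 pairs of opposite arms separated the groups. miR-9-3p, for example, stood at 152.6%, 104% and 60.5% of miR-9-5p in DO2 against 66.6%, 37.9% and 47.7% in DO4.

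**Figure D4:**
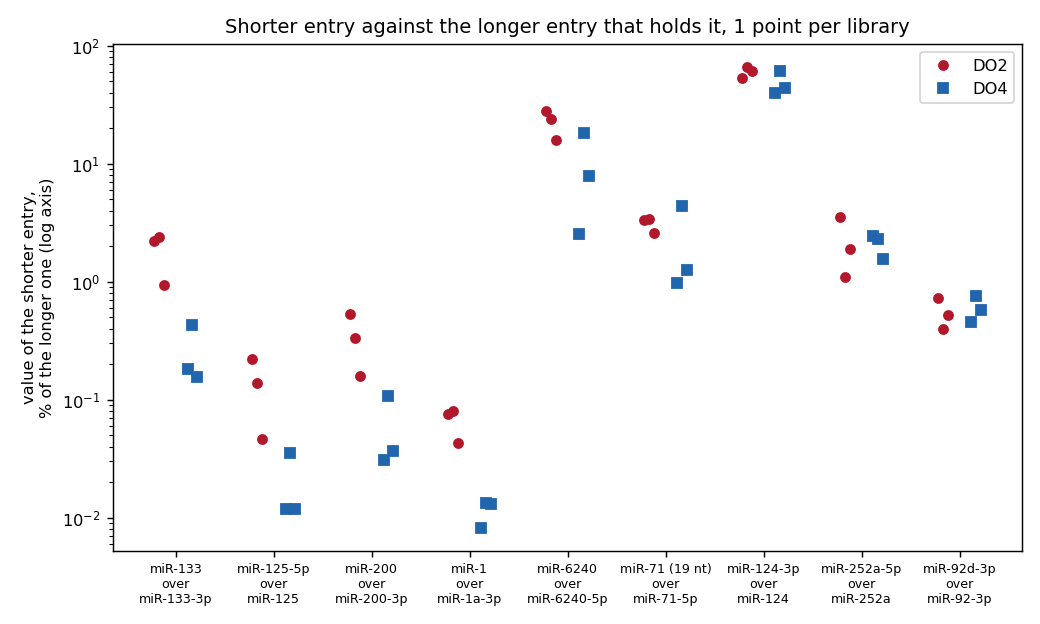
Value of a shorter entry as a percentage of the longer entry that holds its sequence (y axis, logarithmic), with 1 point per library and DO2 left of DO4. The 4 left-most nested pairs do not overlap, with miR-133 at 0.928% to 2.39% of miR-133-3p in DO2 and 0.154% to 0.429% in DO4, and the pairs at the right do.

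The lengths listed differed between the libraries as well. Entries under 20 nt made up 0.263%, 0.256% and 0.155% of the miRNA total in DO2 against 0.0529%, 0.256% and 0.0452% in DO4, and entries of 20 nt 4.83%, 3.45% and 3.15% in DO2 against 0.902%, 2.55% and 1.45% in DO4. Most of the 20 nt share was miR-184-3p (4.29%, 3.13% and 3.00% in DO2 against 0.871%, 2.50% and 1.42% in DO4), and most of the share under 20 nt in DO4_2 was the 19 nt miR-71 entry (0.216%). DO4_2 had the highest share of entries under 20 nt in DO4 and also the highest ratio of miR-133, miR-200 and miR-125-5p to the longer entry. Of the 15 members under 20 nt, 9 were higher and 0 lower on the deposited scale, and of the 42 members of 22 nt or more 6 were higher and 4 lower. That scale called 24.4% of the 90 entries fitted higher and 6.67% lower. Of the 9 under 20 nt, 6 were complete in DO2 only and had to differ to some degree. Among the members listed in all 6 libraries, 3 of 7 under 20 nt were higher and 0 lower, and 4 of 32 of 22 nt or more were higher and 3 lower. The 22 members higher on both scales had a median length of 20 nt, against 22 nt for the 43 members called on neither, and among those listed in all 6 libraries the medians were 21 nt (13 members) and 22 nt (30 members). Across the 85 members the deposited change was weakly related to length (Pearson r = -0.255, Spearman rho = -0.316) and to the log2 of the mean DO4 value (r = -0.477, rho = -0.389). The members share the 6 libraries, and the DO4 value enters both measures. What part the reads per library or the length of the RNA have in the changes was not tested.

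The seed of miR-92 gathered 11 members. The abundant ones, miR-92a, miR-92b-1, miR-92-3p and miR-92a-1, had share changes of 0.23 ± 0.31, 0.26 ± 0.28, 0.30 ± 0.28 and 0.53 ± 0.33, and none was called on either scale (adjusted p of 0.187 or more). miR-92a had shares of 8.68%, 8.45% and 12.9% in DO2 against 10.03%, 5.98% and 9.77% in DO4. miR-92d had values of 213, 221 and 68.8 in DO2 against 24.1, 33.1 and 19.0 in DO4, without overlap (2.53 ± 0.57, adjusted p = 0.00635). miR-235a, which is 1 base shorter, had values of 176, 121 and 26.2 in DO2 against 1.65, 5.80 and 0 in DO4 (4.997 ± 0.90, adjusted p = 0.00188). It entered through DO2 only and had to differ to some degree. The ratio of miR-92d to miR-92a was 0.119%, 0.129% and 0.0252% in DO2 against 0.00604%, 0.0169% and 0.00577% in DO4, a difference of 3.12 in the log2 ratio. Summed over the seed, the family did not differ beyond its spread (0.25 on the log2 scale of the share, adjusted p = 0.499).

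Since forms of a miRNA can share reads, the fit was repeated on sums over each seed. Of the 67 seed families fitted, 35.8% were called on the deposited scale (18 higher and 6 lower) and 44.8% on the share scale (28 higher and 2 lower), and both scales called 18 higher and 2 lower. The families lower on both were those of miR-125 and of miR-2478, and none of the 85 members has the miR-2478 seed. The miR-2478 family was listed at 0 in all of DO2 and at 1.32, 3.41 and 1.58 in DO4, all below the smallest values listed in DO2_1 and DO2_2 (12.4 and 6.45), so nothing is read from its call. miR-1a-3p made up nearly all of the values with its seed, so the short form hardly moved that sum (0.37 deposited, adjusted p = 0.237, and 1.13 as a share, adjusted p = 0.00321). The miR-133 family was not called on either scale (0.14 as a share, adjusted p = 0.761), and the miR-200 and miR-71 families were lower on the deposited scale only (-1.33, adjusted p = 0.00539, and -1.29, adjusted p = 0.00447).

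**Figure D5:**
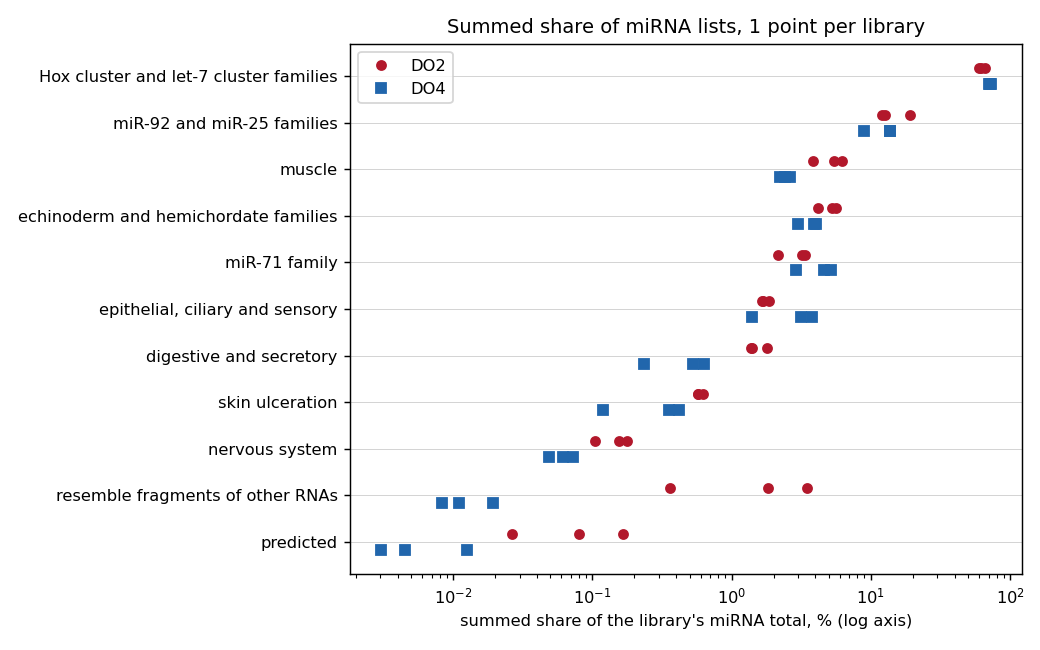
Summed share of each list of miRNAs in the library's miRNA total (x axis, logarithmic), with 1 point per library and DO2 above DO4. The muscle, echinoderm, digestive and secretory (led by miR-375-3p), skin ulceration, nervous system, fragment-like and predicted lists lie higher in DO2 without overlap, and the Hox cluster and let-7 cluster families lie lower. Most of the skin ulceration sum is miR-31a-5p (0.453%, 0.427% and 0.442% in DO2 against 0.105%, 0.326% and 0.377% in DO4), called on neither scale. The largest part of the echinoderm sum is miR-2011-3p, which was not called either.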

How the data were processed

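Small RNAs of 9 libraries were sequenced, 3 per group, and the DO2 and DO4 libraries were compared. The deposited values are a signal, the authors' read counts for each miRNA times a factor per library. The methods describe dividing by the clean reads and scaling to 1000000, which cannot give a sum of 2029412 or more as found here, so the factor was taken as unknown. According to the methods of the study, adapters were trimmed, known non-coding RNAs other than miRNAs (among them rRNA and tRNA) were filtered out, miRNAs were identified by comparison with miRBase allowing mismatches, and MIREAP predicted further ones. The submitters' processing notes name CASAVA 1.5, and the labels describe an mRNA protocol, which was taken as not describing these libraries. Genome build: not given in the sources used here. Removal of rRNA reads and the tolerance of mismatches can shift reads between near-identical entries.

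Matching the tables on name plus sequence gave 475 entries, of which 90 were above 0 in all 3 libraries of a group and were fitted. The main model was limma 3.58.1 (R 4.3.3) on log2(value + 1), with the trend option, a mean per group and all 9 libraries, and the contrast DO2 minus DO4 was adjusted after Benjamini and Hochberg over the 90. The share scale used the value over the library's total, times the mean total. Fold changes of low entries are understated by the 1 added. Only 65.5% to 81.1% of the values in a library were whole reads (within 0.02 of a read), so tests for counts were not used. The value of a read was set with the study's count of reads of predicted miRNAs. The resulting miRNA reads come out below the miRNA totals that the study lists, so they serve as relative depth and for the clean-read alternative. Single library values were compared by exact permutation (scipy 1.17.1); tables were handled with pandas 2.3.3 and numpy 2.4.6 under Python 3.11.15.

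The members, lists and tests were chosen with earlier results of these data known. Named are members called on both scales, the 10 with the largest change of those called on 1 scale, the 10 most abundant, those listed at 0 in a whole group and those of a described list or pair. The fit was tried on simulated normal log2 values with the same spread in every group. They held no zeros, floors or differences in depth, so the trial does not cover those features of the data. Alternatives covered the filter, the added value, a common floor, the scaling, the fit of 2 groups, the replicate number and each library left out.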

Additional observations from a re-analysis of the deposited data

How the results depend on the processing

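Counts of calls (higher and lower) on the deposited scale ran between 22 and 33 when 1 library was left out and between 23 and 32 under the other alternatives except the clean reads, which gave 63 (13 and 50). Seed families gave 15 (10 and 5) with a common floor and 47 (12 and 35) with clean reads, and 19 to 26 with 1 library left out. Share calls ran from 26 to 43 with 1 library left out (seed families 20 to 30), and reached 50 (49 and 1) with the common floor and 29 (29 and 0) with only the DO2 and DO4 libraries. Of the 22 higher calls on the deposited scale 17, and of the 36 on the share scale 25, were kept whichever library was left out. Separated form ratios numbered 16 to 28 with 1 library left out. The ratio of the totals was 0.666 without miR-10 and 0.564 to 0.625 with 1 library left out. The replicate numbers did not pair the libraries (correlations of same-numbered deviations -0.152, 0.189 and 0.234), and a replicate block gave 27 calls on deposited values, 32 on shares, 23 and 25 for seed families. With clean reads the deposited change turned negative for 23 members, 6 of them called on neither scale and the other 17 being miR-137 (-0.85), miR-2008 (-0.051), miR-375-3p (-0.98), miR-124-3p (-1.43), miR-125-5p (-0.66), miR-184 (-0.067), miR-184-3p (-1.57), miR-193 (-0.71), miR-193-3p (-1.44), miR-1a-3p (-1.67), miR-2006-3p (-1.31), miR-252a (-1.68), miR-278-3p (-0.23), miR-29a-3p (-1.46), miR-29b-3p (-1.82), miR-7-5p (-1.47) and miR-9-3p (-1.55). The cause of this shift was not tested. let-7-5p as a share was -0.0688 without miR-10 in the total. With 1 library left out, the change ran through 0 for let-7-5p (-0.12 to 0.27), miR-92a (-0.0125 to 0.36) and miR-92b-1 (-0.041 to 0.477) as a share and miR-29b-3p on the deposited scale (-0.0492 to 0.364); the cause was not tested.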

Other observations

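The 390 entries outside the comparison held little of the signal: 383 were listed in at least 1 DO2 or DO4 library, the largest value was 148.5, and the 85 members made up at least 99.8% of each miRNA total. Of these entries, 21 were listed in 2 DO2 libraries and no DO4 library, 20 of them predicted, and 13 in 2 DO4 libraries and no DO2 library. Entries listed in a single library of the series numbered 6, 61 and 156 in DO2_1, DO2_2 and DO2_3 against 28, 3 and 52 in DO4_1, DO4_2 and DO4_3.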
